A study of Mus musculus with 2 samples.

Results

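The laminin chains, the nidogens and the integrin subunits were described in the adrenal gland of newborn mice. Members were all genes whose symbol is that of a laminin alpha, beta or gamma chain, a nidogen, or an integrin alpha or beta subunit, which gave 39 of the 55536 annotated genes and all of them among the 22028 protein-coding genes. They comprise 11 laminin chains, 2 nidogens, 18 integrin alpha subunits and 8 integrin beta subunits. The series holds 1 group of 2 libraries of total RNA from the adrenal glands of male B6CASTF1/J mice aged 4 day, an F1 hybrid of a laboratory strain and a CAST strain, with no treatment and no second genotype. Each library started from 300 ng of RNA with ERCC spike-in transcripts. The labels call the libraries biological replicates and give them different biosamples but the same donor label, so that differences between them measure the spread between these samples. There was no comparison between conditions to make, and the questions were how high each chain is in the gland, which partners prevail, and how far the libraries differ.

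Laminins are cross-shaped trimers of an alpha, a beta and a gamma chain that assemble into the sheet of a basement membrane, the thin matrix under epithelia and around vessels, muscle, nerve and fat cells. Nidogens bind the laminin gamma chain and link the laminin sheet to collagen IV. Integrins are dimers of an alpha and a beta subunit in the cell membrane that bind laminins, collagens, fibronectin or other cells outside and talins and kindlins inside. In the adrenal gland, basement membrane surrounds the capillaries, the nests of chromaffin cells and groups of steroid-making cortical cells.

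Annotated genes held 32231301 expected counts in replicate 1 and 30292851 in replicate 2. A gene without a count could make up at most 0.0931 CPM and 0.0990 CPM, the share that 3 counts give, and such limits cover counting error only. The markers of the labelled organ were high, with all 8 cortex markers and all 6 chromaffin markers detected. Their summed TPM (a level scaled by transcript length to a fixed library total) was 8704 and 6651 for cortex and 2121 and 1915 for chromaffin cells in replicates 1 and 2. Markers of other tissues differed between the libraries. Summed TPM went from 165.8 to 4900.1 for 8 liver markers, from 21.4 to 157.4 for 5 neutrophil markers and from 525 to 961 for 8 skeletal muscle markers, all higher in replicate 2. It went from 7.72 to 3.03 for 7 kidney markers, higher in replicate 1. Fat cell markers summed to 629 and 779 TPM and erythroid markers to 1829 and 3347 TPM in replicates 1 and 2. Endothelium markers summed to 319 and 362 TPM, mural (vessel wall) markers to 80.0 and 98.9 TPM and mesothelium markers to 19.9 and 16.6 TPM. In whole tissue, fewer cells of a type and less RNA per cell cannot be told apart.

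Most members were measurable. At a mean of 1 TPM or more, 32 of 39 members were detected, or 82.1%, beside 27.2% of annotated genes and 60.4% of protein-coding genes. The median over all 39 members, detected or not, was 6.38 TPM, a level above that of 58.8% of protein-coding genes. Over detected protein-coding genes alone the median was 11.5 TPM, a set unlike that of all members. There were 16 members at 10 TPM or more, 16 from 1 to under 10 TPM and 7 under 1 TPM. The 5 highest, Itgb1, Itga6, Lamb1, Itgb5 and Lamc1, made up 51.7% of the members' summed TPM. All members together took 0.0761% and 0.0804% of TPM, and 0.350% and 0.357% of gene counts. Of the 38 steps from one member to the next lower one, 19 were clear, meaning that both values of the higher gene exceeded both of the lower.

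**Figure D1:**
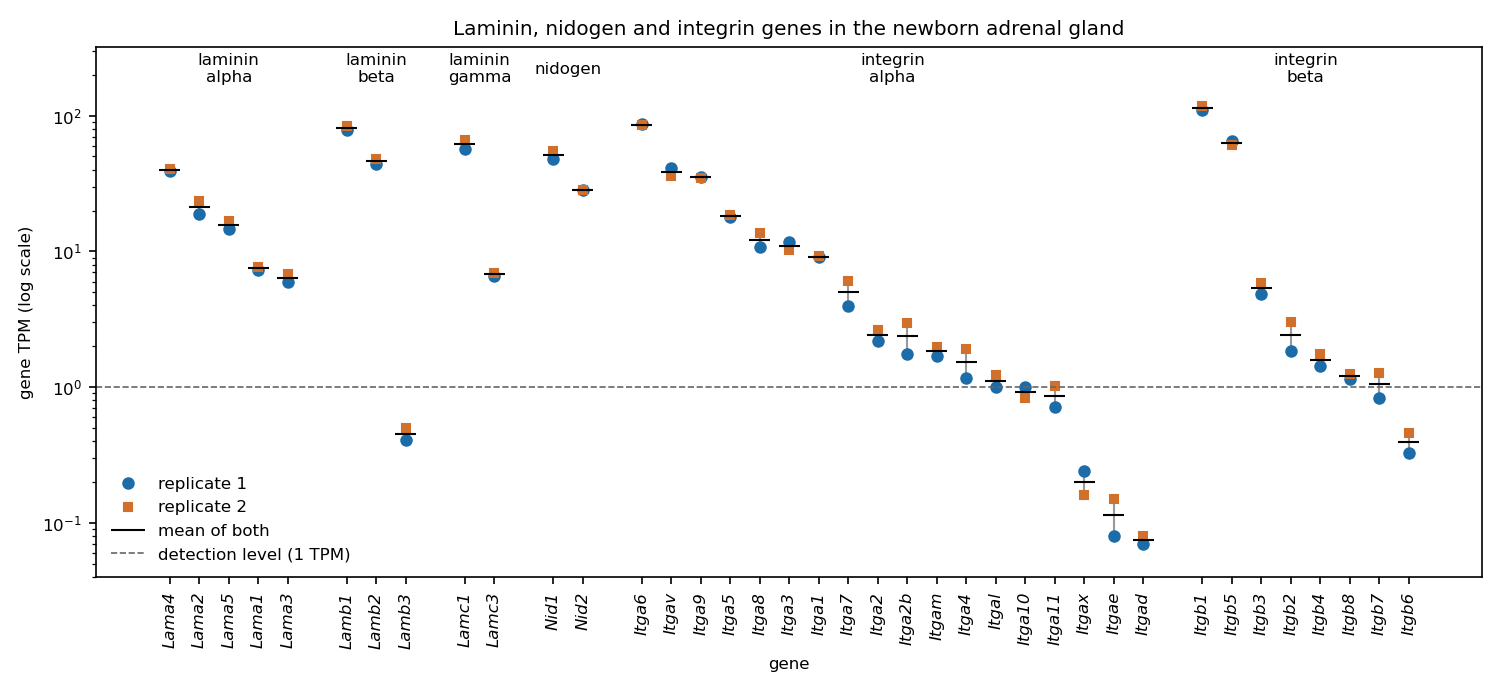
Gene TPM (log axis) of 38 members, with 1 circle for replicate 1, 1 square for replicate 2 and a bar for their mean, grouped by kind of chain and ordered by level. Itgb1, Itga6 and Lamb1 are the highest, and 7 genes have a mean under the dashed detection level of 1 TPM.

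All 5 laminin alpha chains, which carry the part of the trimer that receptors bind, were detected, and their order by gene TPM was clear at each step. Lama4 (chr10:38965515-39110188, mm10, plus strand), the alpha chain of vessel and fat cell basement membranes, was at 38.95 TPM in replicate 1 and 40.73 TPM in replicate 2. Lama2, the chain of muscle and peripheral nerve, was at 18.9 and 23.49 TPM. Lama5, a widespread chain of epithelia and mature vessels, was at 14.67 and 16.82 TPM. The leading chain was thus higher than the second by more than the spread of either. Lama1, the chain of the early embryo and some epithelia, was at 7.34 and 7.67 TPM. Lama3, the chain of the skin type of laminin, was the lowest of the 5 by gene TPM, at 5.91 and 6.85 TPM. The order of Lama3 and Lama1 flipped in the tables made without alignment, at means of 10.2 and 8.67 TPM. It also flipped over protein-coding transcripts of at least 2000 bases, at 6.385 and 4.665 TPM. As shares of the summed alpha TPM, Lama4 took 44.0% ± 1.97 (SD, n = 2), Lama2 23.3% ± 1.80, Lama5 17.4% ± 0.352, Lama1 8.29% ± 0.376 and Lama3 7.03% ± 0.196. The log2 ratio of Lama5 over Lama4, the vessel chains, was -1.34 ± 0.09, and that of Lama2 over Lama1 was 1.49 ± 0.18 (SD, n = 2).

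One beta chain and 1 gamma chain led their kinds. Lamb1 (chr12:31265234-31329644, plus strand), the widespread beta chain, was at 78.29 and 83.75 TPM in replicates 1 and 2. Lamb2, the beta chain of the neuromuscular junction, kidney filter and vessels, was at 44.31 and 48.04 TPM. Lamb3, the beta chain of skin-type laminin, was under the detection level at 0.41 and 0.50 TPM. Both libraries therefore had Lamb1 above Lamb2 and almost no Lamb3, with shares of 63.5% ± 0.239, 36.2% ± 0.207 and 0.356% ± 0.0316 of the beta TPM. Lamc1 (chr1:153218922-153332786, minus strand), the gamma chain of most laminins, was at 56.95 and 65.92 TPM and took 88.6% ± 1.14 of the gamma TPM. Lamc3, a gamma chain found in few tissues, was at 6.60 and 6.93 TPM. The log2 ratio of Lamb1 over Lamb2 was 0.81 ± 0.01. Lamc1 was thus far above Lamc3, by more than the spread of either.

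Both nidogens were high. Nid1 (chr13:13437551-13512269, plus strand) was at 47.9 and 55.14 TPM. Nid2 was at 28.34 and 28.46 TPM. Nid1 took 64.4% ± 2.21 of the pair, a log2 ratio over Nid2 of 0.86 ± 0.14, and the values of the pair did not overlap.

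Since a laminin holds 1 chain of each kind, the summed levels of the kinds were set side by side. The alpha chains summed to 85.8 and 95.6 TPM, the beta chains to 123.01 and 132.3 TPM, and the gamma chains to 64.9 and 73.7 TPM in replicates 1 and 2. The beta sum was the highest and the gamma sum the lowest in both libraries. Beta chains were 1.84-fold the gamma chains and 1.41-fold the alpha chains, and alpha chains were 1.31-fold the gamma chains. The last of these narrowed to 1.06-fold when only protein-coding transcripts of at least 2000 bases were summed. Nidogens summed to 76.2 and 83.6 TPM, 1.15-fold the gamma chains that they bind. Integrin alpha subunits summed to 226.5 and 226.1 TPM and beta subunits to 184.98 and 192.4 TPM. The alpha sum was 1.20-fold the beta sum in the gene tables and 1.64-fold in the alignment-free tables. With long protein-coding transcripts alone the ratio was 0.836, so the direction between the integrin sums flipped with the transcripts counted.

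**Figure D2:**
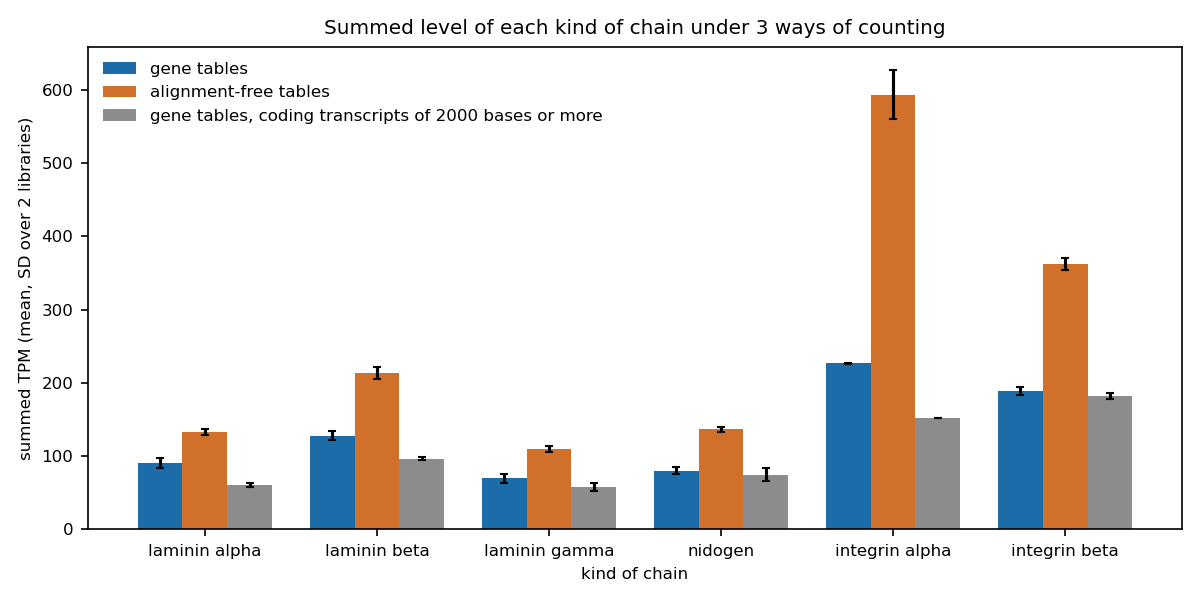
Summed TPM of each kind of chain (bars, mean; whiskers, SD over 2 libraries) in the gene tables, in the tables made without alignment, and for protein-coding transcripts of at least 2000 bases. Laminin beta chains stand above alpha and gamma chains in each of the 3, while the integrin alpha sum is above the beta sum in 2 of the 3 and below it for long coding transcripts.

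Among integrin beta subunits, 2 genes made up most of the level. Itgb1 (chr8:128685654-128733200, plus strand), the partner of most alpha subunits, was the highest member at 109.9 and 117.5 TPM, and 97.9% of protein-coding genes were lower. Itgb5, a partner of the alpha V subunit, was at 64.57 and 61.26 TPM. Their shares were 60.2% ± 1.15 and 33.4% ± 2.17 of the beta TPM, and the log2 ratio of Itgb1 over Itgb5 was 0.85 ± 0.12. The next was Itgb3, the partner of the alpha V and platelet subunits, at 4.87 and 5.90 TPM. Itgb2, the beta subunit of leukocytes, was at 1.86 and 3.01 TPM. Itgb4, the laminin-binding partner of the alpha 6 subunit in epithelia and Schwann cells, was at 1.43 and 1.76 TPM. The values of these 3 subunits did not overlap. Itgb8, which binds latent TGF-beta with the alpha V subunit, was at 1.15 and 1.26 TPM. Itgb7, the partner of the alpha 4 and alpha E subunits in lymphocytes, was at 0.83 and 1.28 TPM. Itgb6, an epithelial partner of the alpha V subunit, was under the detection level at 0.33 and 0.46 TPM. Of the low beta subunits, the values of Itgb8 and Itgb7 overlapped.

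Of the alpha subunits that bind laminin, Itga6 stood highest. Itga6 (chr2:71745616-71858416, plus strand), which pairs with Itgb1 or Itgb4, was at 86.37 and 84.97 TPM, 37.9% ± 0.390 of the alpha TPM. Itga3, which prefers laminins with Lama3 or Lama5, was at 11.71 and 10.23 TPM. Itga7, the laminin receptor of muscle, was at 3.97 and 6.08 TPM. The log2 ratio of Itga6 over Itga3 was 2.97 ± 0.12, and the 3 genes did not overlap. Itga1 and Itga2, collagen receptors that also bind laminin, were at 9.08 and 9.18 TPM and at 2.20 and 2.66 TPM. Itga10 and Itga11, collagen receptors of cartilage and fibroblasts, lay around the detection level, Itga10 at 1.01 and 0.84 TPM and Itga11 at 0.71 and 1.02 TPM.

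Subunits that recognise the short RGD sequence of fibronectin and vitronectin followed. Itgav, the alpha V subunit, was at 41.43 and 35.82 TPM, or 17.1% ± 1.73 of the alpha TPM. Itga5, the fibronectin receptor, was at 17.86 and 18.6 TPM. Itga8, a receptor for nephronectin in mesenchyme, was at 10.71 and 13.55 TPM. The log2 ratio of Itgav over Itga5 was 1.08 ± 0.19, and it was 0.24 ± 0.04 over long protein-coding transcripts alone. Itga2b, the alpha subunit of platelets, was at 1.76 and 2.99 TPM. Of 6 platelet and megakaryocyte markers, 2 were detected, Pf4 at 17.17 and 15.99 TPM and Ppbp at 0.43 and 4.97 TPM.

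Itga9 (chr9:118606690-118901003, plus strand), which binds tenascin, osteopontin and VCAM-type ligands with Itgb1, was the third alpha subunit in the gene tables at 35.44 and 34.66 TPM. Its order with Itgav flipped in the alignment-free tables, at means of 110.3 and 47.7 TPM, and over long coding transcripts, at 32.8 and 18.3 TPM. Its relative Itga4, the subunit of lymphocytes and neural crest cells, was at 1.17 and 1.92 TPM. The leukocyte subunits were low. Itgam, of macrophages and neutrophils, was at 1.71 and 1.99 TPM. Itgal, which all leukocytes use with Itgb2, was at 1.00 and 1.22 TPM. The others of this group, Itgax of dendritic cells, Itgae of epithelial T cells and Itgad, had means from 0.075 to 0.2 TPM. Leukocyte and macrophage markers were present in the same libraries, with a summed TPM of 28.5 and 42.0 over 6 leukocyte markers and 80.3 and 88.0 over 6 macrophage markers.

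Members that the annotation places over other genes are less certain. There were 22 members overlapping another annotated gene, 17 of them with one on the opposite strand, and the strand setting of the counting is not known here. For 5 members the opposite gene held over 10% of the member's own count. These were Itga7 with Mettl7b, Itgad with Cox6a2, Itgae with Haspin, Lamb3 with G0s2 and Hsd11b1, and Nid2 with Rtraf. Itgad, Itgae and Lamb3 had fewer counts than those partners, so their own values are uncertain. Genes on the same strand also held counts. As a fraction of the member's count, Pelo held 0.225 for Itga1, Gm37691 0.5625 for Lamb3 and Gm42957 0.110 for Itga10.

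The members have 209 annotated transcripts, from 2 to 10 each. Both libraries have 2 kinds of quantification, one from aligned reads (the gene tables used above) and one made without alignment. The most abundant transcript was the same in both tables and both libraries for 25 of the 32 detected members, and all 25 of these transcripts are protein-coding. For 5 members the main transcript differed between the tables, among them Itga6, Itgal, Itgam and Itgb7. For Itga2b and Itga7 it differed between the libraries only. The gene level in the alignment-free tables was a median of 1.70-fold that of the gene tables for detected members, beside 1.86-fold for detected protein-coding genes.

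The tables differed most among high members for Itga6. Its alignment-free level was 330.4 and 295.5 TPM, 3.65-fold the level in the gene tables and above the 197.1 and 201.0 TPM of Itgb1 there, so that the order of the 2 highest members flipped. A processed transcript of 443 bases, annotated as non-coding, took 46.4% ± 1.32 of Itga6 TPM in the alignment-free tables and 1.80% ± 0.161 in the aligned ones. Another non-coding transcript, of 2721 bases, took 37.7% ± 0.711 in the aligned tables. Protein-coding transcripts of at least 2000 bases held 58.0% of Itga6 TPM in the gene tables, that is 50.9 and 48.49 TPM. By this measure Itga6, at a mean of 49.7 TPM, was below Lamb1 at 71.2 TPM and Itgb5 at 62.6 TPM. Its mean was also just below those of Nid1 at 50.6 TPM and Lamc1 at 49.8 TPM, whose values overlapped those of Itga6. Among integrin alpha subunits Itga6 was still the highest. Itga9 had a ratio of 3.15 between the tables, and its short transcript Itga9-204 of 650 bases took 26.9% ± 3.66 in the alignment-free tables and was listed at 0 in the aligned ones.

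**Figure D3:**
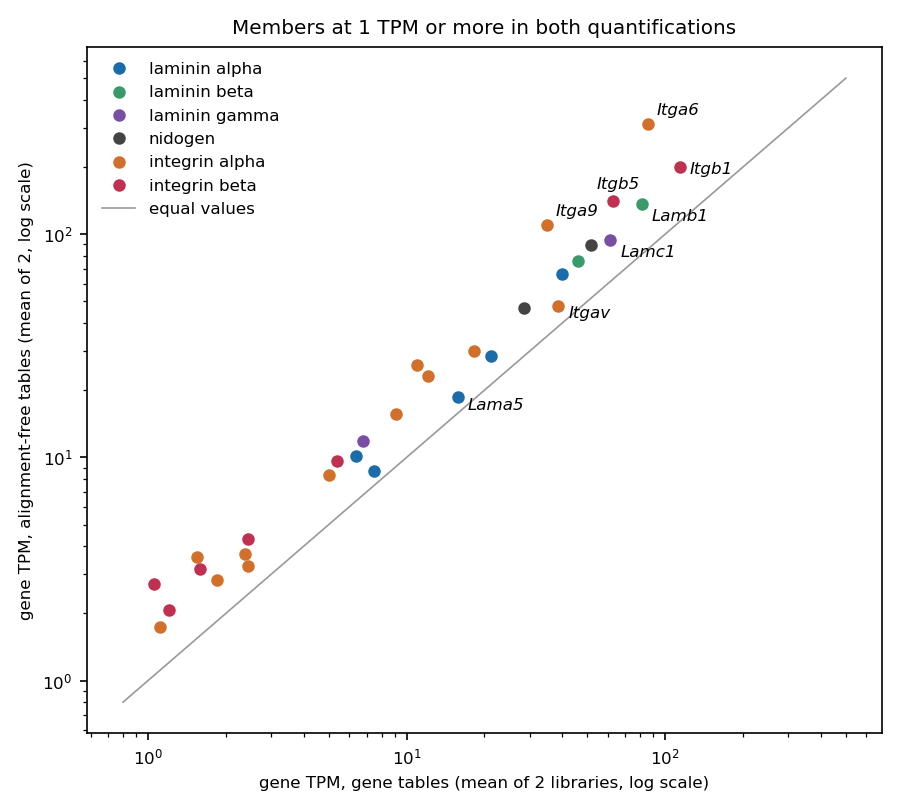
Mean TPM over 2 libraries in the gene tables (horizontal, log axis) against the alignment-free tables (vertical, log axis) for members at 1 TPM or more in both, coloured by kind of chain, with a line of equal values. All points lie above the line, and Itga6 and Itga9 lie farther above it than Itgb1.

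Integrin alpha subunits are known to be made in forms that differ by single exons, and 4 integrins with annotated pairs of this kind are shown by the coding part of the exon, since the forms differ in these bases. The pairs were picked after their values were seen. The late exons of Itga6 and Itga3 encode one of the alternative tails inside the cell, and capitals mark the longest run of bases that they share, 12 bases from base 4 of each. The Itga7 exons are alternatives to each other in the part outside the cell. The Itgb5 stretch is the end of an exon, present where the exon is spliced in its longer form. Sequences are from mm10, 5′ to 3′ on the strand of the gene.
Itga6 exon 25, chr2:71853534-71853638, plus strand: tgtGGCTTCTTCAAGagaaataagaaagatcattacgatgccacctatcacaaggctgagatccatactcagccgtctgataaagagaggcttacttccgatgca
Itga3 exon 25, chr11:95046483-95046590, minus strand: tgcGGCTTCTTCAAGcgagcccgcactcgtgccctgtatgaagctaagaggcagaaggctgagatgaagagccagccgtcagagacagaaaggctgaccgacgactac
Itga7 exon 5 of Itga7-201, chr10:128941822-128941941, plus strand: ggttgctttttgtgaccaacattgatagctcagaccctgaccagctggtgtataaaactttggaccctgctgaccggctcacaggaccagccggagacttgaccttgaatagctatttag
Itga7 exon 5 of Itga7-202, chr10:128941445-128941576, plus strand: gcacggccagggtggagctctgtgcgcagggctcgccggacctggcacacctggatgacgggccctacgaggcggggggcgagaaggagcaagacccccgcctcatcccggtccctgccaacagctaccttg
Itgb5 end of exon 14, chr16:33947853-33947881, plus strand: gtgagcgctccagggcccgttatgaaatg

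For Itga3 the form with its late exon took 98.2% and 100% of the compared TPM in the aligned tables and 98.3% and 100% in the alignment-free ones. For Itga6 the form with the exon took 78.6% and 70.6% in the aligned tables, and 48.7% and 41.0% in the alignment-free tables. Thus Itga3 was nearly all of the exon-containing form in both quantifications, whereas the share for Itga6 was a mean of 74.6% ± 5.65 or 44.9% ± 5.42 (SD, n = 2) depending on the table. For Itga7 the form with the 120-base exon, Itga7-201, took 41.4% in replicate 1 and 59.5% in replicate 2, and 38.6% and 61.2% in the alignment-free tables. The rest was Itga7-202, with the 132-base exon, and both exons are whole numbers of codons. The leading form of Itga7 therefore differed between the libraries in both tables, yet the authors' deposited intervals of the TPM of Itga7-201 overlapped, from 0.573 to 1.78 in replicate 1 and from 1.47 to 2.87 in replicate 2. Summed TPM of the 8 skeletal muscle markers was 525 and 961 in the same libraries, and their part in the result was not tested. The longer form of this Itgb5 exon was in 92.9% and 84.9% of its compared TPM in the aligned tables and in 70.0% and 65.7% in the alignment-free ones.

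Lama3 has a long transcript, Lama3-201 of 10548 bases, and a short one, Lama3-202 of 5551 bases, which encode alpha chains of different length. Lama3-201 took 77.2% and 77.8% in the aligned tables and 100% in both alignment-free tables, where Lama3-202 was listed at 0. Itgb1 and Nid1 showed little of this kind. Long protein-coding transcripts held 95.4% of Itgb1 TPM and 98.3% of Nid1 TPM, with a median of 78.9% over detected members. For 8 detected members the share was under 60%, among them Itga2b at 32.2%, Itgav at 47.3%, Lamb2 at 53.0% and Lama5 at 54.1%.

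**Figure D4:**
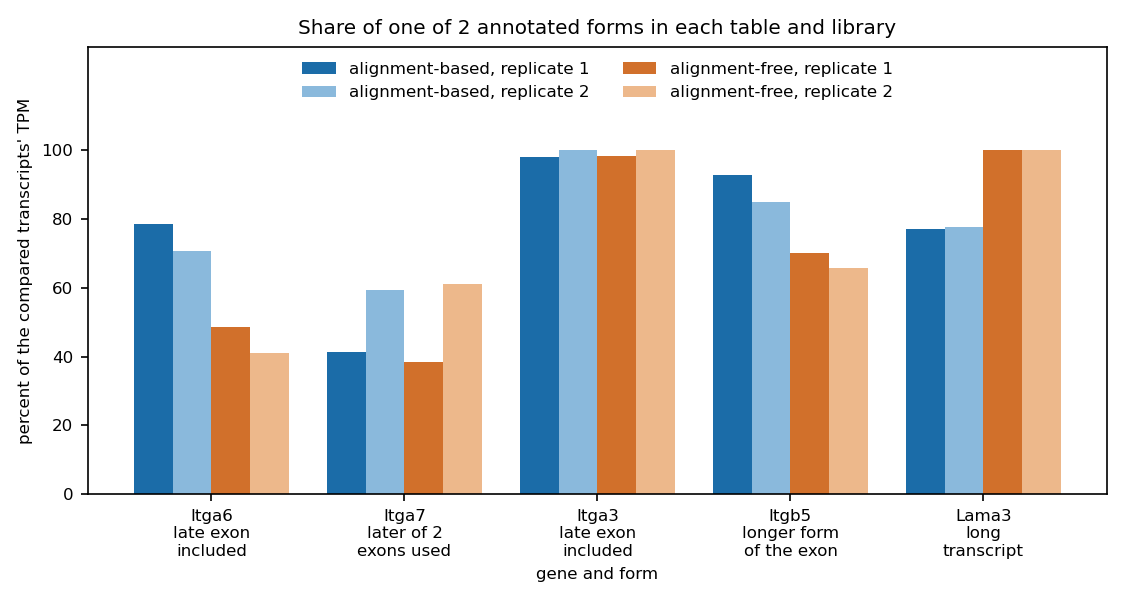
Percent of the compared transcripts' TPM that came from one of 2 annotated forms, for 5 genes, in each library and each quantification (bars from 0). The bars of Itga3 are all near 100, those of Itga6 are lower in the alignment-free tables, and those of Itga7 are higher in replicate 2 in both.

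How far the libraries differed was tested gene by gene with an exact two-sided binomial test of the rounded counts, with Benjamini-Hochberg adjustment over 18160 genes. This test compares the libraries and not conditions. Of 37 members tested, 20 passed an adjusted p of 0.05, 12 higher in replicate 2 and 8 higher in replicate 1. That is 54.1%, beside 33.5% of all genes tested, made up of 15.9% higher in replicate 2 and 17.6% higher in replicate 1. With library size set by total gene counts the split was 13 and 5. The log2 ratio was above 0 for 21 members, or 56.8%, beside 50.1% of all genes tested, and its median was 0.08 beside 0.00. Members also had more counts than most genes, a median of 1486 per library beside 487. Most differences were small, with 31 members under 0.5 and 23 under 0.2 on the log2 scale. The median size of the log2 ratio was 0.13 for members and 0.17 for all genes tested. When library size was set by DESeq2, by total counts or by spike-ins, or with alignment-free counts, 15 of the 20 passed each time in the same direction. The other 5 were Lamb1, Lama4, Itga1, Itgb3 and Itgal. For Lamb1, Lama4 and Itga1 the scaled counts were lower in replicate 2 while TPM was higher, so no direction is given for them.

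**Figure D5:**
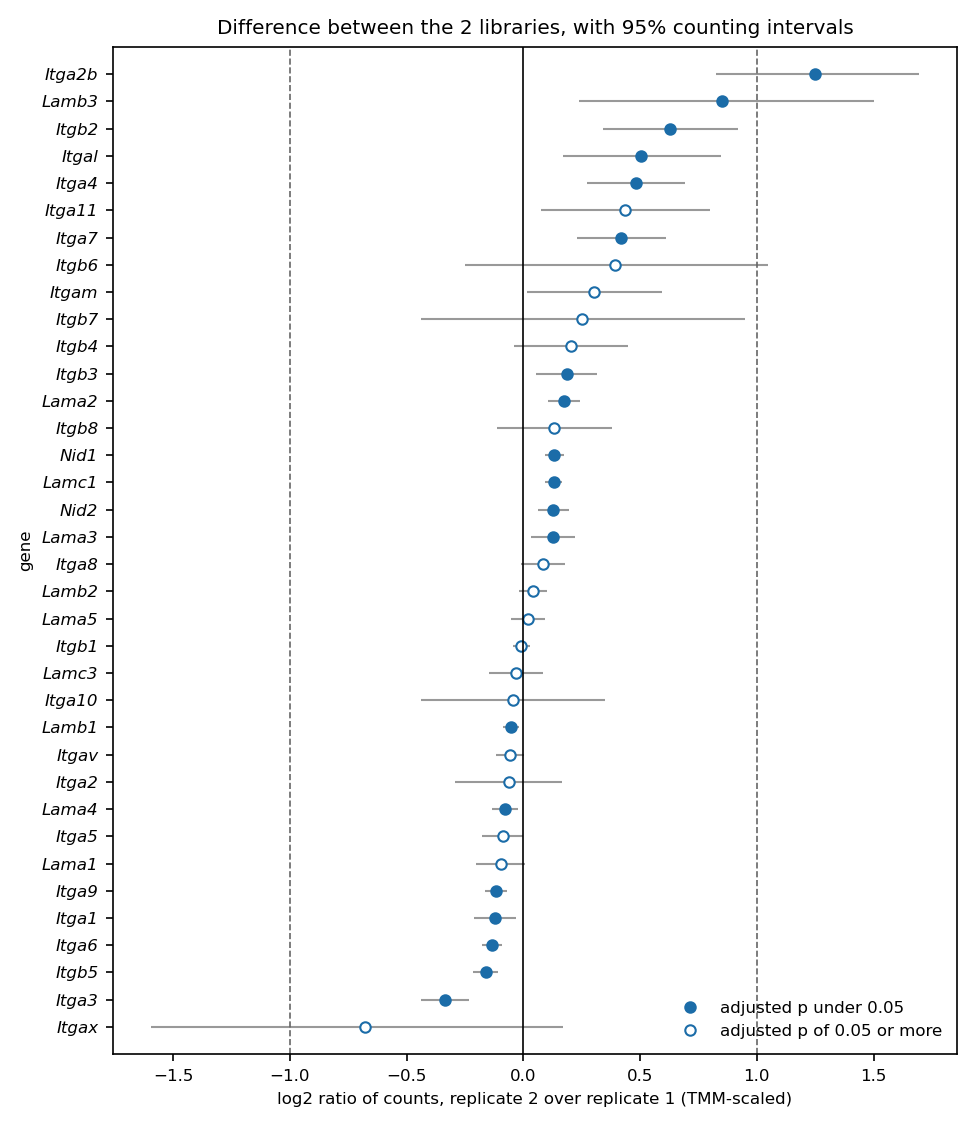
Log2 ratio of TMM-scaled counts, replicate 2 over replicate 1, of 36 members, with 95% counting intervals, ordered by ratio. Filled points passed an adjusted p of 0.05 and open points did not, and Itga2b at 1.25 lies outside the 2-fold range.

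Past both the adjusted p and 2-fold were 2 members, or 5.41%, beside 3.99% of genes tested, 3.38% higher in replicate 2 and 0.606% higher in replicate 1. One of them, Itga2b, had 66 counts in replicate 1 and 151 in replicate 2, a log2 ratio of 1.25 with an interval from 0.83 to 1.69 (binomial test, adjusted p = 1.58e-08). Its full-length transcript Itga2b-201 was at 0.31 and 1.22 TPM, while the non-coding Itga2b-207 of 623 bases, at 0.96 and 0.70 TPM, was the main transcript in replicate 1. The gene's TPM was higher in replicate 2 in the gene tables, as given above, but its alignment-free TPM was 4.07 in replicate 1 and 3.35 in replicate 2, the opposite order, so the direction depends on the measure. The platelet marker Ppbp had a log2 ratio of 3.40 and Pf4 one of -0.18, the summed platelet markers were 17.9 and 22.3 TPM, and Gp1bb was at 0 in replicate 1; their part in the result was not tested. Of the chains of skin-type laminin, Lamb3, which shares its locus with genes of higher count, had 0.85 (adjusted p = 0.0202) and Lama3 0.13 (adjusted p = 0.0254), both higher in replicate 2 and under 2-fold. Summed epithelial markers were 11.6 and 22.1 TPM, with Krt18 at a log2 ratio of 2.21, Krt8 at 1.62, Epcam at -2.24 and Krt5 at 0 and 0.03 TPM; their part in the result was not tested.

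Of 6 leukocyte subunits tested, 3 passed, all higher in replicate 2, beside 15.9% of all genes tested that were higher there and 54.1% of members that passed either way. None of the 6 reached a called 2-fold difference. Itgb2 had 169 and 251 counts and a log2 ratio of 0.63 (adjusted p = 8.39e-05). Itga4 had a log2 ratio of 0.48 (adjusted p = 4.02e-05). Itgal had 0.51 (adjusted p = 0.0108), a call not made with alignment-free counts. The others did not pass, Itgam at 0.30 (adjusted p = 0.101, but 0.0307 with alignment-free counts), Itgb7 at 0.25 (adjusted p = 0.688) and Itgax at -0.68 (adjusted p = 0.245). The neutrophil markers went from 21.4 to 157.4 TPM, and 4 of 6 leukocyte markers passed the test, Ptprc with a log2 ratio of 0.48. Of 6 macrophage markers, 1 passed in each direction, and their median log2 ratio was 0.03. The part of these cells in the result was not tested. Itga7, the muscle subunit, was also higher in replicate 2, with a log2 ratio of 0.42 (adjusted p = 9.35e-05), as were 7 of 8 skeletal muscle markers, whose part in it was not tested.

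Among the members at 10 TPM or more, matrix genes and integrins, the differences were mostly smaller. Nid1 and Nid2 had log2 ratios of 0.13 each (adjusted p = 3.98e-09 and 0.000729), Lamc1 0.13 (adjusted p = 3.52e-11) and Lama2 0.18 (adjusted p = 5.48e-06), all higher in replicate 2 by scaled counts. For Nid2 gene TPM was nearly equal, at 28.34 and 28.46, and alignment-free TPM was lower in replicate 2, at 48.3 and 45.4, so its direction depends on the measure. Higher in replicate 1 were Itga3 at -0.33 (adjusted p = 2.51e-09), Itgb5 at -0.16 (adjusted p = 1.27e-08), Itga6 at -0.13 (adjusted p = 3.24e-09) and Itga9 at -0.12 (adjusted p = 8.31e-06). The highest member, Itgb1, had 13078 and 12482 counts and a log2 ratio of -0.01 with an interval from -0.04 to 0.03 (adjusted p = 0.800). These genes are examples. Of 24 integrins tested, 6 were higher in replicate 2 and 5 in replicate 1, and of 11 laminins 4 and 3. Over all genes tested the shares were 15.9% and 17.6%. Lamb1 and Lama4 were among the laminins with lower scaled counts in replicate 2. Cortex markers summed to 8704 and 6651 TPM, and capsule and fibroblast markers to 902 and 1269 TPM, in replicates 1 and 2. The part of these cells in the result was not tested.

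Other basement membrane genes were read beside the members. Of 25 partners, 24 were detected with a median of 22.9 TPM. All 25 were tested, and 13 were higher in replicate 2 and 5 in replicate 1 at an adjusted p of 0.05. Over all genes tested the shares were 15.9% and 17.6%. The median log2 ratio of the partners was 0.11. Sparc, a matrix protein that binds collagen, was highest at 955.4 and 877.5 TPM, followed by the collagen IV chains Col4a1 at 178.1 and 205.5 TPM and Col4a2 at 95.79 and 105.8 TPM. Past 2-fold were 2 of the 25, both higher in replicate 2, beside 3.38% of all genes tested. They were the integrin ligands fibronectin and vitronectin, which liver makes for plasma. Fn1 was at 52.85 and 129.1 TPM with a log2 ratio of 1.21, and Vtn was at 3.37 and 75.27 TPM with a log2 ratio of 4.61. In the same libraries 8 of 8 liver markers were over 2-fold higher in replicate 2, with Alb at a log2 ratio of 4.84; their part in the result was not tested. Of the alpha subunits of RGD receptors, Itga2b passed the test by counts, as given above. Itga5 at -0.09 (adjusted p = 0.115) and Itga8 at 0.08 (adjusted p = 0.175) did not pass it. Itgav at -0.06 (adjusted p = 0.148) did not pass either, but did with alignment-free counts, at -0.08 (adjusted p = 0.0146). Of the beta partners of Itgav, Itgb5 at -0.16 (adjusted p = 1.27e-08) and Itgb3 at 0.19 (adjusted p = 0.0187) passed in opposite directions. Itgb3 did not pass with alignment-free counts (adjusted p = 0.0656). Its partners Itgb8 at 0.13 (adjusted p = 0.469) and Itgb6 at 0.39 (adjusted p = 0.408) did not pass. Nor did Itgb1, the partner of most alpha subunits, at -0.01 (adjusted p = 0.800).

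Laminin receptors other than integrins were all detected, 20 of 20 with a median of 17.8 TPM. At an adjusted p of 0.05, 8 of the 20 were higher in each replicate. Over all genes tested, 15.9% were higher in replicate 2 and 17.6% in replicate 1. The median log2 ratio of these receptors was -0.08 and none passed 2-fold. Rpsa, a ribosomal protein also described as a laminin receptor, was at 380.2 and 427.8 TPM, the syndecan Sdc3 at 90.17 and 86.28 TPM, and Dag1, the dystroglycan precursor, at 56.59 and 56.13 TPM. In both libraries Dag1 was thus between Lamc1 and Nid1 in level. Of 34 genes of the adhesion complex inside the cell, 33 were detected with a median of 27.0 TPM. The highest were the linkers Tns1 at 91.62 and 89.2 TPM, Actn4 at 82.41 and 78.14 TPM and Tln1, a talin that binds beta subunit tails, at 75.48 and 74.19 TPM. Of the 33 genes tested in this list, 4 were higher in replicate 2 and 13 in replicate 1, beside the same 15.9% and 17.6%. Their median log2 ratio was -0.03. Past 2-fold was 1, the muscle gene Itgb1bp2, at 2.90 and 6.57 TPM with a log2 ratio of 1.09 (adjusted p = 4.06e-10). Of all genes tested, 3.38% were past 2-fold and higher in replicate 2. Of the kindlins, Fermt2 was at 50.28 and 46.74 TPM, Fermt3, known from blood cells, at 2.89 and 3.99 TPM and Fermt1, known from epithelia, at 0.06 and 0.01 TPM. Netrins, guidance proteins built from laminin-type domains, were low, 4 of 6 detected, led by Ntng2 at a mean of 11.1 TPM, Ntn1 at 5.20 and 5.97 TPM and Ntn4 at 3.81 and 4.57 TPM, and none passed the test at an adjusted p of 0.05.

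The members lie on 15 chromosomes, 7 of them on chromosome 2. Some are next to each other with no protein-coding gene between. Itga2 and Itga1 lie 20.995 kb apart on chromosome 13 on the same strand and had 2.43 and 9.13 TPM. Itgam, Itgax and Itgad follow one another on chromosome 7, with gaps of 11.1 and 3.72 kb, and all were under 2 TPM.

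Upstream sequence was looked at because members span a wide range of levels. RefSeq (GRCm38.p6, the build of mm10) gave 27 start sites for 24 members in the table used here, and the 250 bases before each were read. Promoters of members held a median of 10 CG pairs, beside 6 over 32851 promoters of all genes. The median was 16 for members at 10 TPM or more and 5 for members under 3 TPM. The letters GGGCGG, the core of the Sp1 site, were on either strand of 37.0% of the members' promoters and 32.7% of all. The letters GAGGAA, found in sites of ETS factors such as PU.1, were on either strand of 14 of 27, or 51.9%, and in 23.3% of all. For members at 10 TPM or more, GGGCGG was in 61.5% and GAGGAA in 69.2% of promoters. For members under 3 TPM, among them the leukocyte subunits, the shares were 15.4% and 38.5%. Matches are descriptions of these letters and not binding sites. The promoter of the highest member and that of the myeloid Itgam are shown as examples of a promoter with many CG pairs and one at the median of all promoters, with the pairs in capitals. The first has 21 CG pairs and 68.0% G and C, and the second 6 and 49.6%.
Itgb1, chr8:128685404-128685653, plus strand: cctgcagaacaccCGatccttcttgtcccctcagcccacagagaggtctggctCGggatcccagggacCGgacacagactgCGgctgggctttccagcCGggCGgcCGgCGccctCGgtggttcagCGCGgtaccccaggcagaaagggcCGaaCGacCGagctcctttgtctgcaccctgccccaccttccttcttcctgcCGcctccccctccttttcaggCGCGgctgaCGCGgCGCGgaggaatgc
Itgam, chr7:128062390-128062639, plus strand: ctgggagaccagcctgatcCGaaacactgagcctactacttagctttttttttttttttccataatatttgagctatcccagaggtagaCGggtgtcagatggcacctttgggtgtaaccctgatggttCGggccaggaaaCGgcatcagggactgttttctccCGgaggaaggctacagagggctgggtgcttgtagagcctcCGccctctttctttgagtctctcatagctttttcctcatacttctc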

How the data were processed

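Total RNA of 2 libraries was analysed. Per the descriptions deposited with the files, tables were made per library against mm10 and GENCODE M21. The expected counts deposited by the authors are estimates that share reads among transcripts. TPM, also deposited by the authors, divides these counts by transcript length and sets each library to one total, so that levels of different genes can be set side by side. Each transcript's percent of its gene, deposited by the authors, was recomputed here from TPM, and their TPM bounds are called their intervals. A further deposited table per library was made without alignment and was summed per gene. For programs, versions and strand setting: not given in the sources used here. Spike-ins, 1.06% of counts, and 26248 rows named by a number, with 3 and 2 counts, were left out.

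Members follow the rule in the opening, and levels are mean ± SD of gene TPM. The members, the lists of partner and marker genes and the tests were chosen with earlier results of these data known. With 1 group, the sole test was an exact two-sided binomial test of the counts, rounded to whole numbers, in the 2 libraries against TMM sizes (edgeR 4.0.16, R 4.3.3). It covered 18160 genes kept by filterByExpr (minimum count of 10), with Benjamini-Hochberg adjustment, a threshold of 0.05 and 2-fold, and a prior count of 0.5 for log2 ratios. It was tested on simulated data. Ratio intervals are exact at 95%. DESeq2 1.42.0 size factors were an alternative. Named were all members but 1, which counts and sums include but which is not reported here, the 3 highest of each partner list, those past 2-fold, and members with unlike main transcripts. Other partner genes in the text, and marker genes, were picked after their values were seen. Tables were joined with Python 3.11.15 and pandas 2.3.3. Whether the libraries are from separate animals rests on their biosample labels.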

Additional observations from a re-analysis of the deposited data

How the results depend on the processing

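No paired analysis was possible because the series has 1 group. The 32 members detected stayed at 32 with either library alone. They were 34 at 0.5 TPM or in the alignment-free tables and 25 at 2 TPM. Past 2-fold were 2 members, and over 1.5-fold 4. Itga2b was called under all 7 alternatives, with log2 ratios of 1.04 to 1.28. The 25 main transcripts shared by the tables were 27 without replicate 2 and 28 without replicate 1. Restricting to protein-coding transcripts of at least 2000 bases was chosen after seeing the data. The median member was at 6.38 TPM, 5.91 to 6.85 with either library alone, 9.64 in the alignment-free tables and 4.71 over long coding transcripts. Chain sums in the alignment-free tables and over long coding transcripts were 132.6 and 60.5 TPM for laminin alpha, 213.1 and 96.0 for beta, 109.3 and 57.2 for gamma, 593.7 and 151.8 for integrin alpha and 362.2 and 181.6 for integrin beta. With either library alone the sums ranged from 85.8 to 95.6, 123.01 to 132.3, 64.9 to 73.7, 226.1 to 226.5 and 184.98 to 192.4 TPM in that order. Log2 ratios kept their sign under each alternative. In the alignment-free tables they were -1.84 for Lama5/Lama4, 1.72 for Lama2/Lama1, 0.85 for Lamb1/Lamb2, 3.59 for Itga6/Itga3, 0.66 for Itgav/Itga5 and 0.51 for Itgb1/Itgb5. From expected counts, without length scaling, they were -0.80, 1.19, 1.54 and 2.60 for the first 4 of these, 1.37 for Nid1/Nid2 and 1.10 for Itgb1/Itgb5. Over long coding transcripts they were -1.68 for Lama5/Lama4, 1.54 for Lamb1/Lamb2, 1.08 for Nid1/Nid2, 2.31 for Itga6/Itga3 and 0.24 for Itgav/Itga5. A pseudocount of 1 TPM moved none of these ratios by more than 1 SD. With either library alone they ranged from -1.41 to -1.28, 1.36 to 1.61, 0.80 to 0.82, 0.76 to 0.95, 2.88 to 3.05, 0.95 to 1.21 and 0.77 to 0.94 for Lama5/Lama4, Lama2/Lama1, Lamb1/Lamb2, Nid1/Nid2, Itga6/Itga3, Itgav/Itga5 and Itgb1/Itgb5. Beyond the transcripts counted, the cause of these shifts was not tested. Members under 1 TPM rest on few counts, and 2 of them, Itgad and Itgae, had too few for the binomial test.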
